A study of Mus musculus with 14 samples.

Results

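The CXC chemokine cluster on mouse chromosome 5 was examined in ChIP-seq peak lists for the coactivator CRTC2, the NF-κB subunit p65, and H3AcK27, the acetylated histone mark of active promoters and enhancers. The cluster holds 7 protein-coding genes of the 21853 considered in all: Cxcl5, Ppbp, Pf4, Cxcl3, Cxcl15, Cxcl1, and Cxcl2, in this order and all on the plus strand. Every listed peak from 20 kb before Cxcl5 to 20 kb after Cxcl2 was taken, at chr5:90739360-90925938 of GRCm38, and these were 117 of 243429 listed peaks. The 7 members are the only protein-coding genes in this window of 187 kb. The nearest ones outside are Rassf6, 98.7 kb to the left, and Mthfd2l, 5.18 kb to the right.

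The samples were 3T3-L1 cells, an established mouse preadipocyte line, used 4 days into adipocyte differentiation. They received no agent (control), forskolin (FSK, 10 µM), which activates adenylyl cyclase and raises cAMP, TNFα (10 ng/ml), or FSK and TNFα together, each for 1 h. There was 1 library for each antibody and treatment, so 12 lists, and differences between treatments have no replicate check. The line is a culture model without the leukocytes and vessels of adipose tissue. H3AcK27 was listed at the promoters of the adipocyte genes Fabp4, Pparg, and Lpl in all 4 lists, and at those of Adipoq, Plin1, and Cebpa in no list. Of the leukocyte and endothelial genes Ptprc, Adgre1, Itgam, and Pecam1, a promoter region was listed at Pecam1 alone, after TNFα. Depth ran from 16438040 to 31807394 tags for CRTC2 and from 20490261 to 26904732 for p65. The H3AcK27 libraries held 25729060 to 27966129 tags, except the one for FSK, which held 9832884.

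CXC chemokines are small secreted proteins named for a pair of cysteines set apart by another residue. Cxcl1 (KC), Cxcl2 (MIP-2), Cxcl3, and Cxcl5 (LIX) are ligands of the receptor CXCR2 that draw neutrophils into inflamed tissue, and their transcription is induced by NF-κB in many cell types. Ppbp (platelet basic protein) and Pf4 (platelet factor 4) are best known from platelets and megakaryocytes, and Cxcl15 (lungkine) from the lung. CRTC2 is held in the cytoplasm by phosphorylation and enters the nucleus when cAMP rises, where it joins CREB or other bZIP factors. p65 enters the nucleus after TNFα.

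Sequence is shown first for the promoters that hold an NF-κB motif and then for distal loci that the results below turn on. The RefSeq promoter set (GRCm38) had an entry for 6 of the 7 members, all but Cxcl5. The NF-κB motif was found in the entries of Cxcl1, Cxcl2, and Cxcl3, and in 0.155% of 32851 promoters of the same length. It was not found in those of Ppbp, Pf4, and Cxcl15. In each of the 3 promoters it lay 71 to 97 bp before the RefSeq start site, inside an identical stretch of 11 bases that reads as the motif on either strand, shifted by 1 base, and so counts as overlapping matches. The stretches are chr5:90891125-90891240, chr5:90903779-90903870, and chr5:90785981-90786100, all on the plus strand and ending before the annotated transcript, with the 11 bases in capitals.
Cxcl1 promoter: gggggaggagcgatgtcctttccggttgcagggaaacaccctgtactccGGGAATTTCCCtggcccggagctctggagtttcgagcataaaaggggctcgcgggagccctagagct
Cxcl2 promoter: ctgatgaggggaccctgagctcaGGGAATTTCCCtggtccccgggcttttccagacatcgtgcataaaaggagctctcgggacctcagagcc
Cxcl3 promoter: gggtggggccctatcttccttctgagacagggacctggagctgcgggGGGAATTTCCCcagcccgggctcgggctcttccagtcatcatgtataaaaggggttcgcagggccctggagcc

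The distal loci are the one 5.5 kb before Cxcl5, at chr5:90753721-90753961, the CRTC2 peak 10.6 kb before Cxcl1, at chr5:90880581-90880743, and the CRTC2 locus 2.93 kb before Cxcl2, at chr5:90900820-90901068. They are shown because they are the CRTC2 loci with an AP1 match, and are given on the plus strand. Capitals mark matches to the AP1 motif (TGAGTCA or TGACTCA), the C/EBP motif (TTGCNNAA), and the CRE (TGACG) on either strand.
Site before Cxcl5: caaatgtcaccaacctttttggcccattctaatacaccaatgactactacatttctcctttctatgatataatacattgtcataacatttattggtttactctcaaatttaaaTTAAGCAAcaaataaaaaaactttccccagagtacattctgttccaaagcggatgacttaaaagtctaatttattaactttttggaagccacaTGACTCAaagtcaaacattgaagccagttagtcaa
CRTC2 peak before Cxcl1: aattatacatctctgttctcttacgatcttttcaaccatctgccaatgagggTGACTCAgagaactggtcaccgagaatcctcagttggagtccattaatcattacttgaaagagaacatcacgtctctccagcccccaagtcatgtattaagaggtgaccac
Site before Cxcl2: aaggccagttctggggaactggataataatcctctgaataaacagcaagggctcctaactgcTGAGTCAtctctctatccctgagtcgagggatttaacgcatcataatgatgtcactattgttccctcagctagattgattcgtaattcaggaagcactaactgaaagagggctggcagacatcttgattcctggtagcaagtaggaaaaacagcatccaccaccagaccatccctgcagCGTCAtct

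All 3 antibodies had more peaks in the cluster after treatment than in untreated cells, except H3AcK27 after FSK. The CRTC2 lists held 1 peak in the window in untreated cells, 9 after FSK, 8 after TNFα, and 10 after both agents. The p65 lists held 0, 2, 5, and 12 peaks in the same order. The H3AcK27 lists held 15, 15, 21, and 19 regions. The p65 peaks were most numerous after both agents, and CRTC2 peaks were about as many after either agent as after both. With each CRTC2 list cut to the 5188 best-scored peaks, the window held 7 CRTC2 peaks after FSK, 4 after TNFα, and 7 after both agents, so TNFα then had fewer. With each p65 list cut to its 214 best-scored peaks, the length of the shortest list, the window held 0 p65 peaks after FSK, 3 after TNFα, and 2 after both agents, so the order of the last pair depended on list length. With each H3AcK27 list cut to its 38684 best-scored regions, the window held 12, 15, 16, and 18 from control to both agents. The order of the H3AcK27 counts thus also depended on list length.

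**Figure D1:**
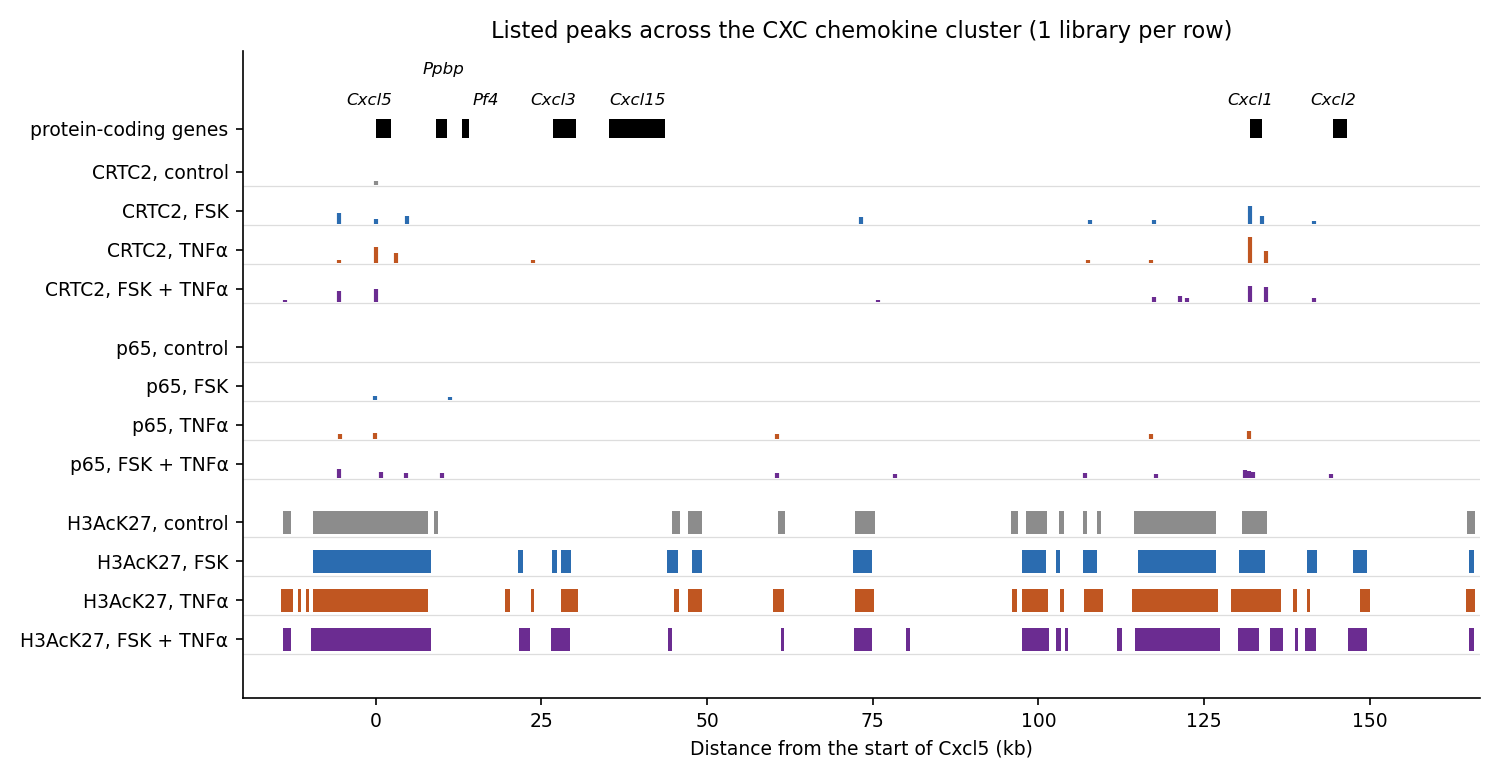
Listed peaks across the cluster, as distance from the start of Cxcl5 in kb, with 1 library per row. Bars for CRTC2 and p65 stand at the peak midpoints with a height proportional to normalised tags on 1 common scale, and blocks for H3AcK27 show the extent of each region. Between Cxcl15 and Cxcl1 lies a stretch of 88.2 kb with the noncoding genes Gm43085 and Gm43086 but no protein-coding gene. It holds 8 CRTC2 loci, 7 p65 loci, and 12 H3AcK27 loci. The p65 count includes the loci at the promoter of Cxcl1, since the stretch runs up to the start of that gene.

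The lists differ in length, so the window was set against the genome. CRTC2 peaks per 100 kb were 2.82 times the genome value in untreated cells, 11.2 times after FSK, 5.98 times after TNFα, and 10.3 times after both agents. For p65 the ratios were 9.84 after FSK, 30.4 after TNFα, and 41.5 after both. For H3AcK27 they were 4.19, 5.66, 6.17, and 6.57 from control to both agents. The cluster was therefore denser in peaks than the genome as a whole in every list with a peak there, and the ratio for p65 grew most from FSK to the combined treatment.

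Of 14597 windows of the same length laid end to end over the genome, 23.4% held at least as many CRTC2 peaks as the cluster in untreated cells. The shares were 0.548% after FSK, 3.16% after TNFα, and 0.397% after both agents. For p65 they were 3.34% after FSK, 0.0754% after TNFα, and 0% after both. With both agents no such window held 12 p65 peaks, and the fullest one, with 11, was a window that overlapped the cluster. The shares for H3AcK27 were 4.19%, 1.45%, 0.480%, and 0.836% from control to both agents. Windows laid end to end start at fixed places and can split a dense stretch, as they split the cluster. After FSK, TNFα, and both agents, the fullest of them over the cluster held 6, 7, and 7 CRTC2 peaks, against 9, 8, and 10. For H3AcK27 after both agents it held 15 regions against 19. The shares may therefore make the cluster look rarer than a like comparison would.

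**Figure D2:**
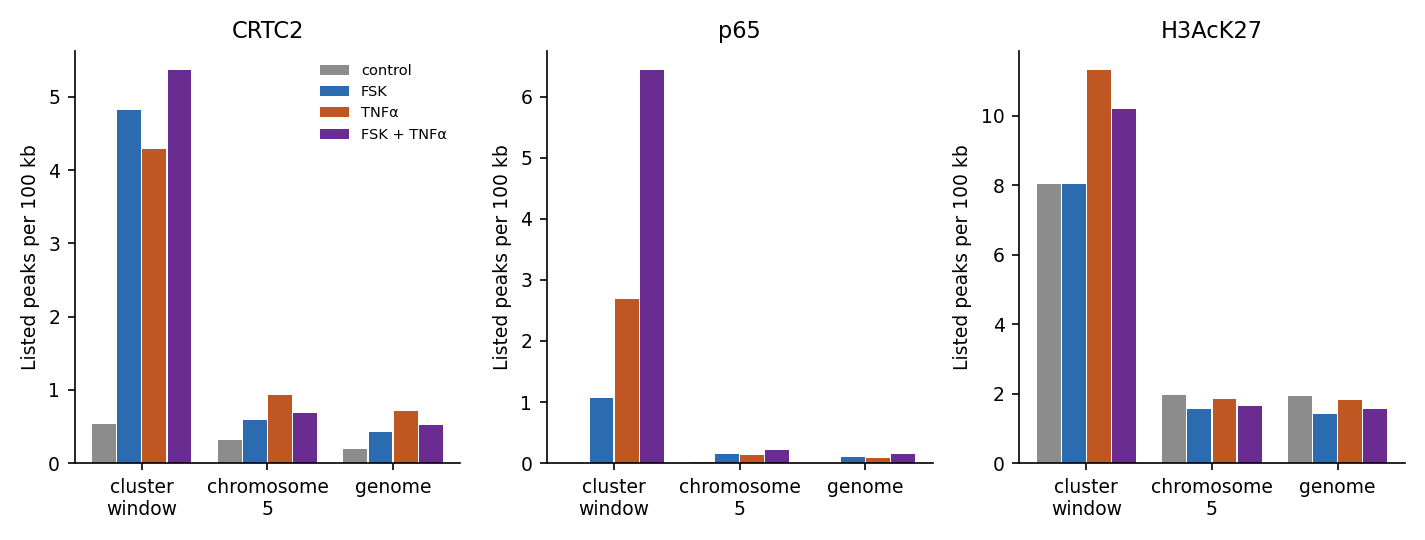
Listed peaks per 100 kb in the cluster window, on chromosome 5, and in the genome, by antibody (panels) and treatment (bars, 1 library each, no error bars). The p65 bars of the cluster window are absent in untreated cells and tallest after both agents, where the ratio to the genome was 41.5.

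Most CRTC2 loci in the cluster lay away from the start sites. By tags, the highest value in the window for each treated list was at the start of Cxcl1. Overlapping CRTC2 peaks of the 4 lists merged into 18 loci, of which 13 were intergenic, 2 lay in the noncoding gene Gm43086, and 3 lay in untranslated parts of Cxcl5 or Cxcl1. The midpoints of 15 of the 18 lay more than 2 kb from the start of any member. Most of the window itself lies that far from a start, and the share over all CRTC2 loci was not computed. Before Cxcl3 there were 6 loci, in the long gap between Cxcl15 and Cxcl1 there were 8, and from Cxcl1 on there were 4. Between the start of Cxcl3 and the end of Cxcl15 there was none. Of the 18 loci, 6 were listed in at least 2 treatments, a share of 6 in 18 where the genome had 31.2%.

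CRTC2 at Cxcl5 lay mainly at 2 sites with the opposite order of treatments. The upstream site lay 5.52 kb before the gene. It was not listed in untreated cells and had 36.5 normalised tags per 10000000 after FSK (95% Poisson interval 27.9 to 47.0), 9.07 after TNFα (5.81 to 13.5), and 35.8 after both agents (29.6 to 43.1). At this site the libraries that received FSK were high and the library after TNFα alone was low. The intervals, which cover counting error only, did not overlap. The peak after TNFα ended at 90753877, and those after FSK and after both agents ended at 90753948 and 90753961. The values thus come from shifted stretches, and the AP1 match, at 90753927, lies outside the peak after TNFα. The value after FSK was 4.02 times that after TNFα, where 3.01% of 5619 CRTC2 peaks listed in both treatments were at least 2-fold higher after FSK. The value after both agents was 3.95 times that after TNFα, where 2.50% of 6131 shared peaks were at least 2-fold higher and the median ratio was 0.729.

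The start site of Cxcl5 had the reverse order. CRTC2 had 12.7 normalised tags there in untreated cells (8.14 to 18.9), 17.0 after FSK (11.3 to 24.6), 54.4 after TNFα (45.9 to 64.0), and 43.7 after both agents (36.7 to 51.6). The libraries that received TNFα were high and those without it were low, with no overlap of the counting intervals. This was the only CRTC2 locus of the cluster listed in untreated cells, and the only one listed in all 4 treatments. The value after TNFα was 4.28 times the control, where 54.4% of 2275 shared peaks were at least 2-fold higher, so a difference of this size was common among shared peaks. It was 3.20 times that after FSK, against 15.1% of shared peaks at least 2-fold higher after TNFα. The value after both agents was 2.57 times that after FSK, against 3.19% of 6364 shared peaks.

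Other CRTC2 peaks around Cxcl5 and the platelet genes appeared in 1 list each. A peak 3.06 kb after the start of Cxcl5, past its end, had 33.6 normalised tags after TNFα. A peak 4.36 kb before Ppbp had 26.8 after FSK. A peak 2.94 kb before Cxcl3 had 9.44 after TNFα and was the only CRTC2 peak within 5 kb of the start of Cxcl3. None of these was listed after both agents, where the single further peak on this side, 13.6 kb before Cxcl5, had 6.60.

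In the gap before Cxcl1 the CRTC2 peaks were weaker and seldom coincided between treatments. In Gm43086, a lincRNA, a peak had 22.5 normalised tags after FSK and another, 40.6 kb past the start of Cxcl15, had 6.60 after both agents. About 24 kb before Cxcl1, neighbouring peaks that did not overlap had 9.07 after TNFα and 14.0 after FSK. At 14.4 kb before Cxcl1, a locus had 14.6 after FSK (9.35 to 21.7) and 17.9 after both agents (13.6 to 23.2) and was not listed after TNFα. Peaks at 10.6 and 9.48 kb before Cxcl1 were listed after both agents only, at 21.1 and 13.5 normalised tags. Of the 8 loci of the gap, 1 was thus shared by more than 1 treatment. Most CRTC2 loci of the genome, 68.8%, were likewise listed in 1 treatment only, so this was not particular to the gap.

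The highest CRTC2 values of the cluster were at Cxcl1. The start site had 59.0 normalised tags after FSK, 87.6 after TNFα, and 54.7 after both agents, and was not listed in untreated cells. Behind the gene, a peak 2.47 kb past the start had 38.9 after TNFα (31.8 to 47.2) and 50 after both agents (42.5 to 58.4), while FSK alone had a separate peak, 1.86 kb past the start, with 25.6. At Cxcl2 no CRTC2 peak lay at the promoter. The nearest locus, 2.93 kb upstream, had 12.2 after FSK (7.43 to 18.8) and 13.5 after both agents (9.78 to 18.2) and was listed neither in untreated cells nor after TNFα. The site before Cxcl2 and the one 14.4 kb before Cxcl1 were thus listed only in libraries that received FSK. At 2 of the 18 CRTC2 loci the lists were exactly FSK and both agents, compared with 6.42% of all CRTC2 loci.

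**Figure D3:**
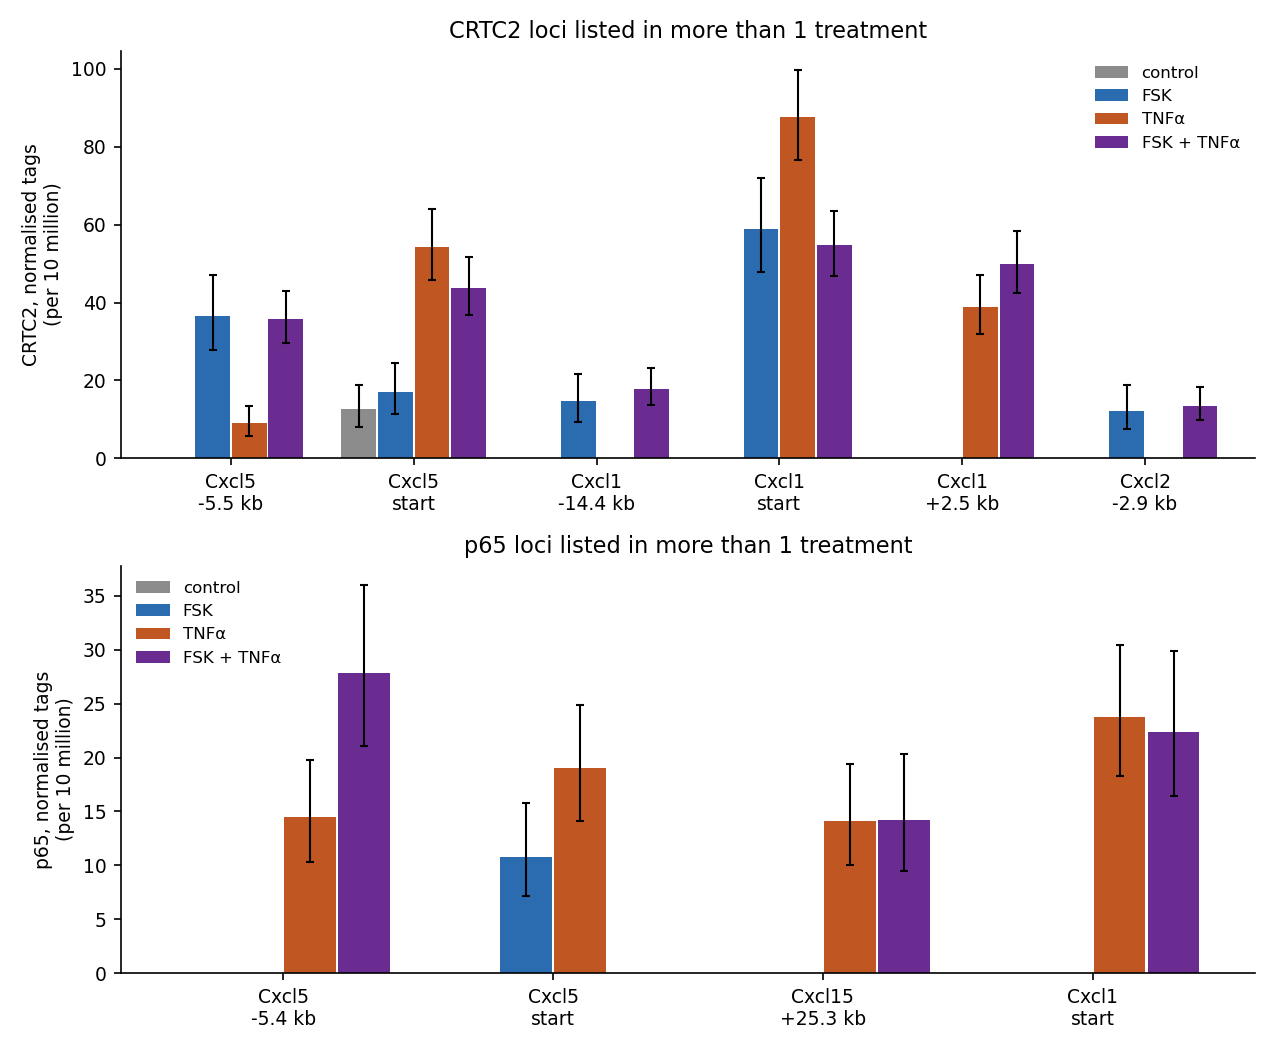
Normalised tags per 10000000 at the 6 CRTC2 loci (top) and 4 p65 loci (bottom) listed in more than 1 treatment, with 1 library per bar and 95% Poisson intervals that cover counting error only. A missing bar means that the peak was not listed, not that it was 0. CRTC2 was highest after FSK or both agents 5.5 kb before Cxcl5, and after TNFα at the starts of Cxcl5 and Cxcl1.

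Binding of p65 lay both at and away from start sites. The p65 peaks merged into 15 loci, of which 8 were intergenic, 4 lay just before a start site, 2 in coding sequence, and 1 in an intron. The midpoints of 7 of the 15 lay more than 2 kb from the start of a member. Of the 15 loci, 4 were listed in 2 treatments, where the genome had 3.24% listed in at least 2. The combined treatment alone accounted for 9 of the 15 loci, where the genome had 41.5%. Of its 12 peaks, 7 stood at the lowest score of that list, a score of 7.

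At Cxcl5, p65 was listed at or near both main CRTC2 sites, but in fewer treatments than CRTC2 at each. The upstream site, 5.44 kb before the gene, had 14.5 normalised tags after TNFα (10.3 to 19.8) and 27.8 after both agents (21.1 to 36.0), and was not listed in untreated cells or after FSK. The value after both agents was the highest p65 value of the cluster. It was 1.92 times that after TNFα, where the median ratio of 272 shared p65 peaks was 1.31. The promoter of Cxcl5 had 10.8 after FSK (7.13 to 15.8) and 19.0 after TNFα (14.1 to 24.9), and no peak was listed there after both agents. These peaks had 5.89 and 4.06 times the tags of the input, close to the threshold of 4-fold for listing. With both agents p65 was listed instead in the intron, 820 bp past the start, at 17.1, and 4.57 kb past the start, at 14.6.

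Past Cxcl5, p65 peaks were scattered. A peak in the coding sequence of Ppbp had 14.6 normalised tags after both agents, and a peak 1.81 kb before Pf4 had 9.22 after FSK. Cxcl3 and Cxcl15 had no p65 locus between the start of the one and the end of the other. In the gap, a locus 25.3 kb past the start of Cxcl15 had 14.1 after TNFα (9.99 to 19.4) and 14.2 after both agents (9.48 to 20.3), so the values were nearly equal. Peaks 43.1 kb past the start of Cxcl15 and 24.9 and 14.1 kb before Cxcl1 were listed after both agents only, at 12.2, 15.1, and 13.2.

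At Cxcl1, p65 spread over 3 loci. The one 99 bp before the start had 23.8 normalised tags after TNFα (18.3 to 30.4) and 22.4 after both agents (16.4 to 29.9). With both agents 2 further peaks were listed, 0.741 kb before the start, at 23.4, and in coding sequence 536 bp after it, at 19.0. At the promoter itself the counting intervals overlapped. The flanking peaks were not listed after TNFα, so there was no value to compare at these places. The p65 list after both agents was also longer, with 4221 peaks against 2404. At Cxcl2 a single p65 peak, 0.399 kb before the start, had 10.7 after both agents and stood at the lowest score of the list.

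Peaks of CRTC2 and p65 overlapped at few places. With FSK 1 CRTC2 peak of the 9 overlapped a p65 peak, at the start of Cxcl5, where the genome had 0.553%. With TNFα 3 of the 8 did, among them those at the starts of Cxcl5 and Cxcl1, against 0.625%. With both agents 2 of the 10 did, 5.5 kb before Cxcl5 and at the start of Cxcl1, against 3.36%. From the side of p65, the overlapping peaks were 1 of 2, 3 of 5, and 2 of 12, against 2.19%, 5.07%, and 11.3%. The site before Cxcl5 showed the closest match: after both agents the midpoints lay 8 bp apart and the peaks shared 155 bp. With TNFα alone the peaks of the same site did not overlap and lay 12 bp apart. When 8-fold over input was required of both peaks, 1 overlap was left after TNFα, at the start of Cxcl1, 1 after both agents, at the site before Cxcl5, and 0 after FSK.

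Acetylation covered a large part of the cluster already in untreated cells. H3AcK27 regions covered 49.9 kb of the window in untreated cells, 53.4 kb after FSK, 63.7 kb after TNFα, and 58.3 kb after both agents. These were 26.7%, 28.6%, 34.2%, and 31.3% of the window, compared with 4.18%, 2.68%, 4.05%, and 3.04% of the genome. The summed normalised tags were 4014, 5501, 5923, and 5740, and the tags per kb of covered length were 80.4, 103, 92.9, and 98.4. Both the covered length and the tags per kb were lowest in untreated cells. Over all listed regions of the genome the tags per kb were 57.0, 66.6, 60.4, and 61.4. These had the same order of treatments, so the order of the tags per kb was not particular to the cluster. With regions of at least 8-fold over input alone, the covered shares were 21.2%, 16.2%, 24.6%, and 17.1%, so only TNFα stayed above control. With the lists cut to equal length they were 25.3%, 28.6%, 28.2%, and 30.4%, so every treatment was above control. The order of the treatments thus depended on the cut. The library with FSK alone was the shallowest of this antibody, and the input also differs with FSK, and their part in these differences was not tested. The regions merged into 26 loci. Of these, 22 were intergenic or in noncoding genes, a share that was not computed for the genome. Of the 26 loci, 8 were listed in all 4 treatments, where the genome had 37.1%.

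The widest region contained Cxcl5 and the site 5.5 kb before it and stretched from 9.42 kb before the gene to 7.83 kb past its start in untreated cells. It was 17.2 kb wide in untreated cells, 17.8 kb after FSK, 17.3 kb after TNFα, and 18.1 kb after both agents. Regions of at least 10 kb made up 1.60%, 0.807%, 1.76%, and 1.23% of the lists. Its normalised tags were 1836, 2544, 2418, and 2436, or 106, 143, 140, and 134 per kb. Relative to control the density was 1.34 times after FSK, 1.31 times after TNFα, and 1.26 times with both, where the median ratios of all shared regions were 1.06, 1.01, and 0.956. The 3 treatments gave much the same density here, whichever agent was used.

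A further wide region lay in the gap, over no annotated gene, about 5 to 18 kb before Cxcl1. It was 12.3 kb wide in untreated cells and between 11.8 and 13.0 kb after treatment. Its normalised tags were 1136 in untreated cells, 1515 after FSK, 2011 after TNFα, and 2036 after both agents, or 92.0, 128, 155, and 159 per kb. The density was 1.39 times the control after FSK, 1.68 times after TNFα, and 1.72 times with both. Among all shared regions, 4.48% were at least 1.5-fold denser after TNFα than in untreated cells and 6.96% after both agents, and among those of at least 10 kb the shares were 2.25% and 5.60%. The libraries after TNFα were thus the high ones. By density this region ranked 343 of 49754 after TNFα and 285 of 42227 after both agents. Within it lay 4 of the CRTC2 loci, among them those 14.4, 10.6, and 9.48 kb before Cxcl1, and 2 of the p65 loci, among them the one 14.1 kb before the gene.

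**Figure D4:**
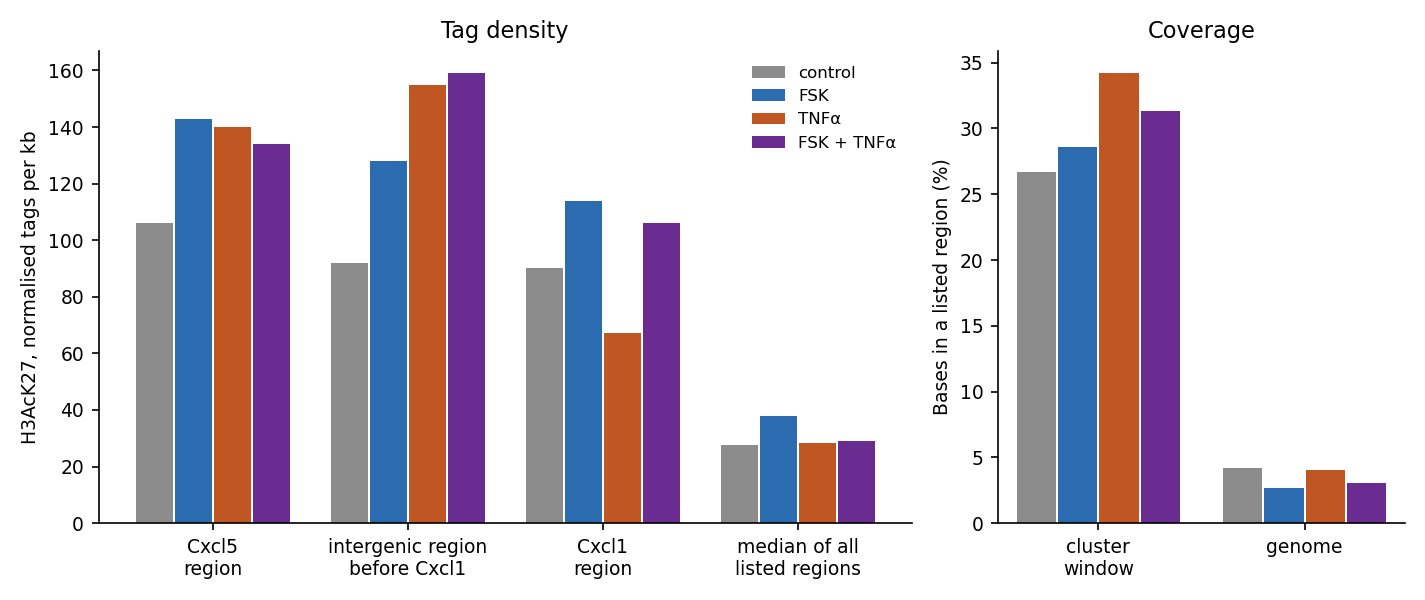
Left, H3AcK27 normalised tags per kb in the region over Cxcl5, the intergenic region before Cxcl1, and the region over the start of Cxcl1, beside the median of all listed regions, by treatment with 1 library per bar and no error bars. Right, percent of bases in a listed region in the window and in the genome. The intergenic region reached 155 per kb after TNFα and 159 after both agents from 92.0 in untreated cells.

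At the members themselves acetylation differed. The region over the start of Cxcl1 had 343 normalised tags in untreated cells, 437 after FSK, 511 after TNFα, and 342 after both agents, where a separate region behind the gene had 73.8. With TNFα the region was 7.60 kb wide, compared with 3.80 kb in untreated cells, so that its density was lower, 67.2 per kb against 90.2, although its tags were more. Cxcl3 had no region in untreated cells. It had 82.4 normalised tags over 2 regions after FSK, 70.3 after both agents, and 89.8 after TNFα, in a region that began inside the gene, away from its promoter, and ran past its end. Cxcl2 had no region at its start in any list. It was flanked by regions 3.43 kb before and 3.86 kb past the start, which were not listed in untreated cells. They had 66.1 and 92.5 after FSK, 10.7 and 49.7 after TNFα, and 78.5 and 92.5 after both agents. Per kb, the upstream region had 44.0 after FSK, 21.4 after TNFα, and 45.5 after both agents, so the libraries that received FSK were the high ones, and it held the CRTC2 locus listed in the same libraries. Per kb, the downstream region had 43.2, 33.2, and 32.9, and TNFα and both agents were nearly equal there.

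The other acetylated loci of the gap were smaller and had no common order of treatments. The region in Gm43086 had 196 normalised tags in untreated cells, 198 after FSK, 154 after TNFα, and 185 after both agents. A region 32.3 kb before Cxcl1 had 229, 268, 254, and 217. The region at Gm43085, just past Cxcl15, had 43.5, 82.4, 21.5, and 15.2 and was highest after FSK. Regions 23.7 kb before Cxcl1 had 31.5, 106, and 122, and none was listed after both agents. The 18 loci listed in at least 2 treatments were 18 of 26, where the genome had 67.9%.

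CRTC2 peaks of the cluster lay almost all in acetylated chromatin, and p65 peaks did so in part. CRTC2 peaks overlapped an H3AcK27 region of the same treatment at 1 of 1 in untreated cells, 9 of 9 after FSK, 8 of 8 after TNFα, and 8 of 10 after both agents. The shares over all CRTC2 peaks were 59.6%, 84.1%, 74.5%, and 82.6%. For p65 the counts were 1 of 2 after FSK, 5 of 5 after TNFα, and 7 of 12 after both agents, against 16.1%, 39.6%, and 31.8%. The CRTC2 counts were near those of the genome, while the p65 counts were above them. After treatment, H3AcK27 regions covered 28.6% to 34.2% of the window, against 2.68% to 4.05% of the genome. The p65 comparison therefore cannot separate the p65 peaks from the acetylation of the window as a whole.

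Counted at promoters, from 1000 bp before to 100 bp after a start site, few members were bound. CRTC2 was listed at Cxcl5 in untreated cells, where 11.8% of protein-coding genes had a peak, and at Cxcl5 and Cxcl1 in each treatment, where 27.4%, 39.9%, and 29.1% had one. So 2 of 7 was near the background. p65 was listed at no member in untreated cells (0.0915% of genes), at Cxcl5 after FSK (0.586%), at Cxcl5 and Cxcl1 after TNFα (0.627%), and at Cxcl1 and Cxcl2 after both agents (1.01%). H3AcK27 was listed at Cxcl5, Ppbp, and Cxcl1 in untreated cells (51.7%), at Cxcl5, Ppbp, Cxcl3, and Cxcl1 after FSK (47.0%) and after both agents (49.1%), and at Cxcl5 and Cxcl1 after TNFα (51.4%). At Ppbp the untreated cells had a small region of its own, with 7.61 normalised tags, and after FSK and after both agents it was the wide region over Cxcl5 that reached into the promoter without covering the start of Ppbp. Pf4 and Cxcl15 had no promoter peak of any antibody in any list.

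Other CXC chemokines and receptors outside the cluster gave a comparison. Of 15 such genes, 2 had a CRTC2 peak at the promoter in each list. Cxcl10, an interferon-induced ligand of CXCR3, had one in all 4, Cxcl12, the ligand of CXCR4, in untreated cells, and the scavenger receptor Ackr3 in the treated ones. At Cxcl10 the CRTC2 values were 12.7 normalised tags in untreated cells, 13.4 after FSK, 45.0 after TNFα, and 14.5 after both agents. None of the 15 had a p65 peak at the promoter in any list. H3AcK27 was listed at 3 of them in untreated cells, after FSK, and after TNFα, and at 4 after both agents.

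Motif matches were counted in 200 bp centred on each locus, on both strands. Among the 15 p65 loci, 2 held the NF-κB motif, the ones at the starts of Cxcl5 and Cxcl1, where 1.00% of all p65 loci did. The AP1 motif was in 3 of 15 (7.13%), the CRE in 4 of 15 (5.78%), and the C/EBP motif in 3 of 15 (11.4%). Among the 18 CRTC2 loci, the CRE was in 1 (17.1%), the AP1 motif in 3 (10.4%), the NF-κB motif in 1 (0.255%), and the C/EBP motif in 3 (9.95%). The CRTC2 loci with an AP1 match were the sites 5.5 kb before Cxcl5, 10.6 kb before Cxcl1, and 2.93 kb before Cxcl2, each listed after both agents. That list held 10 CRTC2 peaks in the window, so this does not set the AP1 loci apart from the 18. Within the 200 bp, the sole CRE of a CRTC2 locus was in the peak 3.06 kb past the start of Cxcl5, listed after TNFα alone. The RefSeq promoter entry of Cxcl1 held 2 CRE matches, and those of Ppbp, Pf4, Cxcl3, Cxcl15, and Cxcl2 held 0. The paper also names 2 CREs in the Cxcl1 promoter. These matches lie outside the 200 bp of the CRTC2 locus at the start of Cxcl1, so the count leaves them out. The CRE capitals in the sequence before Cxcl2 lie outside the 200 bp. The p65 loci with a CRE were those 4.57 kb past the start of Cxcl5, in Ppbp, 14.1 kb before Cxcl1, and at the start of Cxcl1. The p65 loci with an AP1 match included those 5.44 kb before Cxcl5 and 1.81 kb before Pf4. A match is a description of the letters, and no match says only that these letters are absent from the window.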

How the data were processed

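Peak lists for CRTC2, p65, and H3AcK27 under 4 treatments were used, with 1 library each. Reads were aligned and peaks called with HOMER in each library by the authors. STAR and the build mm10 are named in the submitters' processing notes. How reads matching several places were handled is not given in the sources used here, which bears on the similar genes Cxcl1, Cxcl2, and Cxcl3. The deposited signal of a peak is its tag number scaled to 10000000 tags per library. The deposited score is the peak caller's, and the deposited fold values are ratios to the input or to the surrounding 10 kb. The deposited lists hold peaks with 4-fold or more over input, at a Poisson p-value threshold of 0.0001 set by the authors. Control and TNFα libraries were called against untreated input, and FSK and combined libraries against FSK input, so the input also differs with FSK. Weaker peaks are left out of a list, which says nothing of their level.

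Genes came from GENCODE mouse release 21 (GRCm38). Peaks were assigned to the window, and merged into loci, by an overlap of at least 1 bp. Distances run from the annotated gene start to the midpoint. Tag numbers were restored from the library total for exact 95% Poisson intervals, which cover counting error only. Ratios between treatments used overlapping peaks, and H3AcK27 ratios used tags per kb. The genes named are the 7 members and fixed lists of other chemokines, receptors, and cell markers. The members and lists were chosen with earlier results of these data known, and no test was made. The peaks of 1 site between Cxcl15 and Cxcl1 enter the counts but are not reported here one by one. The shares of peaks past 2-fold and of regions past 1.5-fold, the regions of at least 10 kb, and the search to 60 kb from the cluster were added after the data were seen. On simulated data the code for overlap, merging, coverage, and motifs passed all 11 checks. Python 3.11.15, numpy 2.4.6, scipy 1.17.1, and matplotlib 3.10.9 were used.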

Additional observations from a re-analysis of the deposited data

How the results depend on the processing

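Of 123 values recomputed with 1 choice changed, 96 stayed within 1.5 times the reported value, among them every value under a flank of 50 kb or no flank and with loci joined by midpoints within 100 bp. Requiring 8-fold enrichment over input moved most of the others. It left 1 p65 peak with FSK, 5, 3, 6, and 4 H3AcK27 regions from control to both agents, and 9 H3AcK27 loci. It left 0 overlaps of CRTC2 and p65 with FSK, 1 with TNFα, and 1 with both agents. At promoters it left 1 member with CRTC2 with FSK, 0, 1, and 1 with p65 with FSK, TNFα, and both, and 2 with H3AcK27 with FSK and with both agents. The covered share became 16.2% with FSK and 17.1% with both, below the 21.2% of control. With lists cut to the size of the shortest for each antibody (5188 for CRTC2 and 214 for p65), the window held 4 CRTC2 peaks with TNFα and 0, 3, and 2 p65 peaks with FSK, TNFα, and both, so the order of TNFα and both agents for p65 was not kept. Widening peaks to 500 bp on each side of their midpoints gave 4 overlaps with both agents. The longer promoter gave 2 members with p65 with FSK. The called peak as search space gave 2 CRTC2 loci with a CRE. The NF-κB motif was in 3 CRTC2 loci with 1 mismatch and in 2 with the wider consensus. Against chromosome 5 alone the CRTC2 density ratio in control cells was 1.73. Causes were not tested. Depth differed between libraries, and the H3AcK27 library with FSK was the shallowest, so a region absent from its list may lie under its threshold. No paired analysis was possible because each group had 1 library.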

Other observations

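A search to 60 kb past the first and last member, chosen after the data were seen, found p65 peaks with more tags than any in the window. The p65 peak 52.9 kb before Cxcl5 had 48.7 normalised tags after TNFα, where it ranked 9 of 2404 by score, and 40 after both agents, where it ranked 22 of 4221. Another, 56.3 kb before Cxcl5, had 20.1 after TNFα and 41.5 after both agents. At the site 52.9 kb away, a CRTC2 peak with 11.0 after TNFα overlapped the p65 peak of that treatment. At the site 56.3 kb away, a CRTC2 peak with 8.80 after both agents did so. The sites are intergenic, between Rassf6 and Cxcl5, and no list of control cells or of FSK held a p65 or CRTC2 peak there. The H3AcK27 region over them had 874 normalised tags in untreated cells, 841 after FSK, 1539 after TNFα, and 2961 after both agents. Its density was 80.2, 86.2, 113, and 119 per kb, since the region was wider after both agents.

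On the other side, at the start of Mthfd2l, a mitochondrial folate enzyme gene, CRTC2 was listed at 11.0 normalised tags after FSK, 10.6 after TNFα, and 7.23 after both agents. A p65 peak in its intron had 15.6 after TNFα. H3AcK27 there had 314, 358, 383, and 468 from control to both agents.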
